A study of Homo sapiens with 12 samples.

Results

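The subunits of the mitochondrial respiratory chain and of ATP synthase that the nuclear genome encodes were measured as 83 genes out of 60649 in the count table. They were taken by symbol. Complex I held the NDUFA, NDUFB, NDUFC, NDUFS and NDUFV genes with NDUFAB1, complex II SDHA to SDHD, complex III the UQCR genes with CYC1, complex IV the COX4 to COX8 genes, and complex V the ATP5F, ATP5M and ATP5P genes with ATP5IF1. Of 194 matching symbols, 104 were left out as pseudogenes by name and 7 because their counts summed to under 100. The 7 were COX4I2, COX6A2, COX7B2 and COX8C, each at 0 counts in every library, UQCRFS1-DT at 2, ATP5MF-PTCD1 at 43 and ATP5MGL at 47. The 83 genes were 38 of complex I, 4 of complex II, 10 of complex III, 13 of complex IV and 18 of complex V, and all 83 passed the filter on low counts and were tested.

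RNA was sequenced from SK-UT-1B and SK-LMS-1, 2 established lines that the labels call uterine leiomyosarcoma and of WT genotype. SK-UT-1B was cultured for 72 h with DMSO (libraries 4-1 and 4-2) or with MK-0752 given together with gemcitabine and docetaxel, called the combination here, at IC30 (libraries 3-1 and 3-3). SK-LMS-1 was cultured for 72 h with DMSO (set 2, libraries 2-1 and 2-3, and set 4, libraries 4-1 and 4-2), with MK-0752 alone at its IC30 (libraries 2-2 and 2-3), or with the combination at IC30 (libraries 4-1 and 4-2). By the paper, IC30 doses were set for each line and treatment. In SK-LMS-1 the MK-0752 dose was lower in the combination than alone. The combination held lower doses of each drug in SK-UT-1B than in SK-LMS-1. MK-0752 inhibits gamma secretase, which releases the active Notch fragment, gemcitabine blocks DNA synthesis, and docetaxel stabilizes microtubules. The sources used here do not say what the first number of a library name marks. It is called a set here, and the SK-LMS-1 treatments were compared with the DMSO libraries of the same number. The SK-UT-1B combination libraries carry number 3 and its DMSO libraries and the SK-LMS-1 combination libraries number 4, so in the comparisons between them whatever the number marks and the treatment or line cannot be told apart. Each line stands for 1 tumor only, no source used here says that the libraries of a group came from separate cultures, and p-values then measure the spread between libraries, which may be technical.

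Complex I takes electrons from NADH and complex II takes them from succinate, and both pass them to ubiquinone. Complex III hands them to cytochrome c and complex IV to oxygen, and the proton gradient built on the way drives ATP synthase, complex V. A few core subunits are encoded in mitochondrial DNA, and the rest are made in the cytosol from nuclear genes and imported. Several nuclear subunits of complex IV and of ATP synthase exist as paralogs, some of them specific to heart and skeletal muscle, lung or testis.

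Between 25250057 and 40709885 reads were counted on genes in a library, and the median of the 83 genes was 790 to 2169 counts. Levels are given as CPM, counts scaled by TMM to a common library size. By chi-square per degree of freedom over genes, the combination libraries of SK-UT-1B differed most from each other (101, against 16.4 to 56.1 elsewhere), but by the correlation of log CPM across genes it was the libraries of DMSO set 4 of SK-LMS-1 (0.938, against 0.954 for the SK-UT-1B combination). Of the smooth muscle markers, MYH11 was at or near 0 in all 12 libraries, DES was at 0 counts in SK-LMS-1 and at 1.37 to 9.76 CPM in SK-UT-1B, and 8 of the 9 tested (ACTA2, ACTG2, CALD1, CNN1, LMOD1, MYLK, SMTN and TAGLN) were higher in SK-LMS-1 after DMSO. Of 5 tested epithelial markers, 4 (KRT8, KRT18, KRT19 and CLDN4) were higher in SK-LMS-1. The keratin KRT8 was at 87.0 to 109 CPM in SK-LMS-1 and at 0 counts in SK-UT-1B, while EPCAM was at 1.04 CPM or less everywhere. In bulk libraries, fewer cells with a gene's RNA and less of that RNA per cell cannot be told apart.

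The first question was how the lines differ without drug. After DMSO, genes of all 5 complexes included some that SK-LMS-1 held at lower levels than SK-UT-1B. Of the 83 genes, 36 were lower at an adjusted p under 0.05, where 19.5% of the 21114 genes tested were lower, and 4 were higher, where 21.5% were higher (edgeR's quasi-likelihood test, Benjamini-Hochberg). With an absolute log2FC of at least 1 as well, 22 were lower, against 14.1% of all genes, and 2 were higher, against 17.0%. The log2FC was below 0 for 69 of the 83, with a median of -0.68, while the median over all tested genes was 0.00. Among the 79 members with a mean of at least 50 counts, 49.4% were lower, against 28.2% of the 13522 genes tested with that filter.

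The level of the whole group was read from the summed CPM of its genes. The sum was 6679 and 6736 CPM in the SK-UT-1B DMSO libraries, and 3487, 3926, 3981 and 3958 CPM in those of SK-LMS-1 (3838 ± 235, SD, n = 4). The lines did not overlap, and SK-UT-1B was 1.75 times SK-LMS-1. By complex the ratio was 1.60 for complex I, 1.83 for II, 1.87 for III, 1.36 for IV and 2.00 for V, and every one of these sums was higher in both SK-UT-1B DMSO libraries than in all 4 SK-LMS-1 DMSO libraries. As a share of all counts, before any scaling, the 83 genes took 0.727% and 0.737% in SK-UT-1B after DMSO, 0.503% and 0.682% after the combination, and 0.327% to 0.384% in the 8 SK-LMS-1 libraries.

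**Figure D1:**
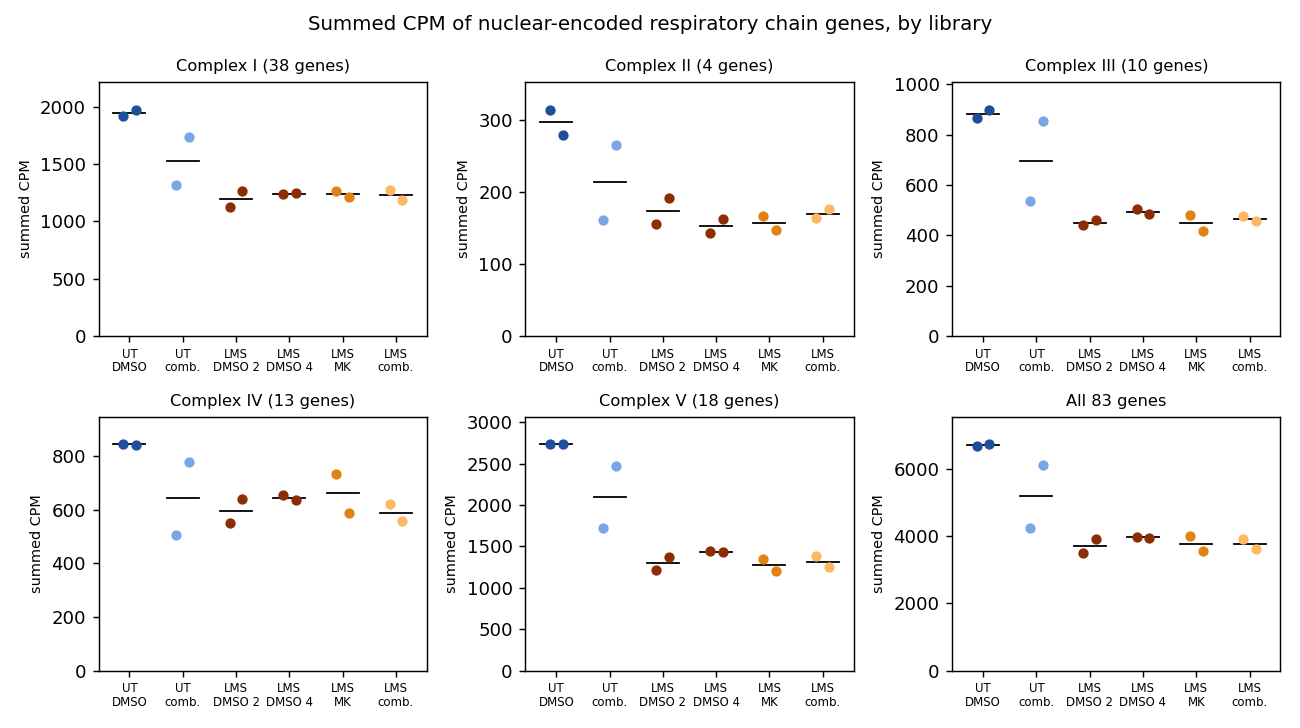
Summed CPM of the genes of each complex and of all 83 genes (vertical axes, from 0) in each library; points are libraries, black lines are group means of 2 libraries, UT is SK-UT-1B, LMS is SK-LMS-1, DMSO 2 and DMSO 4 are the DMSO sets, MK is MK-0752 and comb. is the combination. Both SK-UT-1B DMSO libraries lie above all 8 SK-LMS-1 libraries in every panel, and the 2 SK-UT-1B combination libraries lie apart from each other, at 4256 and 6111 CPM over all 83 genes.

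Complex I had 12 genes lower and 2 higher in SK-LMS-1 after DMSO, with a median log2FC of -0.64, and 24 genes were not called. NDUFS1, the largest subunit and a carrier of iron-sulfur clusters, had 330 and 320 CPM in SK-UT-1B after DMSO, 283 and 350 CPM after the combination, and 110 to 161 CPM in the 8 SK-LMS-1 libraries. For NDUFV1, which binds NADH and flavin, the values were 151 and 155 CPM, 102 and 130 CPM, and 62.0 to 89.2 CPM. Neither gene overlapped between the lines. Their log2FC after DMSO was -1.23 (SE 0.15) and -1.17 (SE 0.15), and edgeR's Benjamini-Hochberg adjusted p was 9.93e-07 and 2.31e-06.

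NDUFA6, an accessory subunit, had the lowest log2FC among the called genes of complex I. It had 111 and 102 CPM in SK-UT-1B after DMSO, 65.9 and 86.8 CPM after the combination, and 19.8 to 40.4 CPM in SK-LMS-1. Its log2FC after DMSO was -1.79 (SE 0.23, edgeR adjusted p = 2.62e-06). NDUFAB1, the acyl carrier protein that also serves mitochondrial fatty acid synthesis, had 36.8 and 33.1 CPM in SK-UT-1B after DMSO and 11.3 to 20.4 CPM in SK-LMS-1 after the same treatment (log2FC -1.30, SE 0.29, edgeR adjusted p = 0.00129). NDUFB9, an accessory subunit of the membrane arm, had 91.6 and 85.4 CPM against 35.2 to 53.6 CPM (log2FC -1.08, SE 0.21, edgeR adjusted p = 0.000231). NDUFS7, which holds the last iron-sulfur cluster before ubiquinone, was called with the lines close together, at 50.6 and 35.6 CPM against 14.9, 29.6, 22.4 and 33.3 CPM after DMSO (log2FC -0.79, SE 0.30, edgeR adjusted p = 0.0416). That call was kept under 11 of 13 alternatives and lost without the SK-UT-1B DMSO library 4-1 (0.217) or the SK-LMS-1 DMSO library 2-1.

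The 2 genes of complex I that were higher in SK-LMS-1 were the membrane arm subunits NDUFC2 and NDUFB5. NDUFC2 had 3.25 and 5.04 CPM in SK-UT-1B after DMSO, 5.74 and 5.29 CPM after the combination, and 8.64 to 16.0 CPM in the 8 SK-LMS-1 libraries (log2FC 1.34, SE 0.43, edgeR adjusted p = 0.0172). The call was lost without the SK-LMS-1 DMSO library 2-1 (0.115) and without the SK-UT-1B DMSO library 4-1 (0.246). NDUFC2 shares 19.7% of its transcript with the readthrough gene NDUFC2-KCTD14, so the counts may be split between them. NDUFB5 had 33.5 and 32.4 CPM, then 28.2 and 23.4 CPM, and 38.7 to 66.2 CPM in SK-LMS-1 (log2FC 0.81, SE 0.21, edgeR adjusted p = 0.00399, and 0.0558 without the SK-LMS-1 DMSO library 4-2). For both genes the lines did not overlap. NDUFA4, named for complex I and later assigned to complex IV, had 70.1 and 74.6 CPM in SK-UT-1B after DMSO and 79.3, 66.6, 49.5 and 50.2 CPM in SK-LMS-1, with overlap (log2FC -0.26, SE 0.18, edgeR adjusted p = 0.263).

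Complex II, succinate dehydrogenase, also serves the citric acid cycle and has no subunit from mitochondrial DNA. Of its 4 genes, 3 were lower in SK-LMS-1. SDHA, the flavoprotein that oxidizes succinate, had 23.9 and 20.1 CPM in SK-UT-1B after DMSO, 11.6 and 18.5 CPM after the combination, and 2.42 to 9.16 CPM in SK-LMS-1. SDHC and SDHD, the membrane anchors, had 115 and 82.3 CPM and 63.1 and 76.5 CPM in SK-UT-1B after DMSO, against 31.7 to 46.4 CPM and 32.7 to 52.2 CPM for SK-LMS-1 with DMSO. After DMSO, none of these 3 genes overlapped between the lines, and log2FC was -2.19 (SE 0.42), -1.33 (SE 0.24) and -0.81 (SE 0.22), with edgeR adjusted p of 0.000243, 0.00017 and 0.00455. The call of SDHD was lost without the SK-UT-1B DMSO library 4-2 (0.0518). SDHB, the iron-sulfur subunit, had 113 and 101 CPM against 70.6 to 88.2 CPM and was not called (log2FC -0.44, SE 0.18, edgeR adjusted p = 0.0609), though 7 of 13 alternatives called it lower. SDHA counts are uncertain, since 69.4% of its transcript is shared with another gene on the same strand and its pseudogenes held 44.8% as many counts. With the pseudogene counts added and under every other alternative, its log2FC lay between -2.38 and -1.88.

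Complex III moves protons while it reduces cytochrome c. Of its 10 genes, 6 were lower in SK-LMS-1, none was higher and all 10 had a log2FC below 0, with a median of -0.76. CYC1, cytochrome c1, had 151 and 121 CPM in SK-UT-1B after DMSO, 86.0 and 144 CPM after the combination, and 33.3 to 65.0 CPM in SK-LMS-1 (log2FC -1.28, SE 0.21, edgeR adjusted p = 7.39e-05). UQCRFS1, the Rieske iron-sulfur protein, had 71.1 and 70.2 CPM, then 65.2 and 70.1 CPM, and 28.6 to 39.3 CPM in SK-LMS-1 (log2FC -1.06, SE 0.18, edgeR adjusted p = 6.92e-05). Neither gene overlapped between the lines. UQCRC1, a core protein, had 178 and 163 CPM against 87.0 to 116 CPM after DMSO (log2FC -0.83, SE 0.27, edgeR adjusted p = 0.0249). UQCRH, the hinge protein, had 115 and 135 CPM against 48.3 to 64.3 CPM (log2FC -1.18, SE 0.18, edgeR adjusted p = 1.81e-05). Its copy without introns, UQCRHL, lay at 0.729 to 6.57 CPM over all 12 libraries, with overlap and no call (log2FC -0.47, SE 0.88, edgeR adjusted p = 0.735).

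Complex IV, cytochrome c oxidase, had 6 genes lower and 2 higher. Its most widely used subunit 4 form, COX4I1, had 84.6 and 121 CPM in SK-UT-1B after DMSO and 35.9, 63.2, 76.3 and 57.2 CPM in SK-LMS-1 (log2FC -0.84, SE 0.32, edgeR adjusted p = 0.0609, no overlap, called lower under 10 of 13 alternatives), and its hypoxia form COX4I2 was at 0 counts in all libraries. COX5A had 103 and 106 CPM against 37.8 to 60.2 CPM after DMSO and was lower (log2FC -1.13, SE 0.25, edgeR adjusted p = 0.00127), while COX5B had 54.8 and 70.9 CPM against 34.6 to 54.2 CPM and was not called (log2FC -0.46, SE 0.20, edgeR adjusted p = 0.0711, called lower under 6 of 13 alternatives). COX6A1 had 16.7 and 9.73 CPM against 1.78, 8.40, 3.61 and 3.11 CPM (log2FC -1.67, SE 0.50, edgeR adjusted p = 0.0104), a call lost without the SK-UT-1B DMSO library 4-1 (0.12), and it shares 32.6% of its transcript with another gene. COX6B1 had 225 and 168 CPM against 78.3 to 117 CPM (log2FC -0.91, SE 0.21, edgeR adjusted p = 0.00255), and COX8A had 48.2 and 28.5 CPM against 7.54 to 23.0 CPM (log2FC -1.44, SE 0.31, edgeR adjusted p = 0.000908), with 35.4% of its transcript shared with another gene. COX7B, at 33.9 and 53.7 CPM against 21.0 to 53.8 CPM, overlapped and was not called, though 2 of 13 alternatives called it lower. COX6A2, COX7B2 and COX8C, forms of muscle or testis, were at 0 counts everywhere, and the testis form COX6B2 was low, with 51 and 16 counts in the SK-UT-1B DMSO libraries and 0 in the 4 SK-LMS-1 DMSO libraries. That is at least 11.1-fold lower, taking 3 counts per library as the floor (edgeR adjusted p = 0.0498), but the SK-LMS-1 combination library 4-2 held 15 counts, and the call was kept under 3 of the 12 alternatives that gave it a value.

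The largest called difference was in the COX7A family. COX7A1, the form typical of heart and skeletal muscle, was at 0 counts in all 4 SK-UT-1B libraries. In SK-LMS-1 it had 6.68, 10.1, 2.52 and 7.80 CPM after DMSO, 14.1 and 11.3 CPM after MK-0752, and 8.98 and 8.29 CPM after the combination. Every SK-LMS-1 library lay above every SK-UT-1B library, and the DMSO difference was at least 73.8-fold (edgeR adjusted p = 1.78e-06, at most 0.000205 under the 13 alternatives). COX7A2, the form of other tissues, overlapped between the lines, with 94.5 and 83.1 CPM against 67.2 to 94.6 CPM after DMSO (log2FC -0.10, SE 0.16, edgeR adjusted p = 0.664). COX7A2L, a related protein that joins complexes III and IV into supercomplexes, was higher in SK-LMS-1, with 65.7 and 72.7 CPM in SK-UT-1B after DMSO, 65.5 and 59.6 CPM after the combination, and 119 to 178 CPM in the 8 SK-LMS-1 libraries (log2FC 0.94, SE 0.17, edgeR adjusted p = 0.000129). The lines did not overlap.

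Complex V had 9 genes lower and none higher. ATP5F1B, the catalytic beta subunit, had 958 and 951 CPM in SK-UT-1B after DMSO, 697 and 931 CPM after the combination, and 295 to 390 CPM in SK-LMS-1. ATP5F1A, the alpha subunit, had 621 and 626 CPM, then 380 and 508 CPM, and 193 to 233 CPM in SK-LMS-1. Neither overlapped between the lines, and after DMSO log2FC was -1.42 (SE 0.12) and -1.55 (SE 0.13), with edgeR adjusted p of 8.66e-09 and 8.28e-09. ATP5F1E, the small epsilon subunit, had 47.8 and 61.5 CPM against 34.0 to 57.9 CPM with overlap (log2FC -0.32, SE 0.25, edgeR adjusted p = 0.32). ATP5IF1, which blocks reverse action of the enzyme, had 77.9 and 69.9 CPM against 28.9 to 50.8 CPM (log2FC -0.86, SE 0.19, edgeR adjusted p = 0.00102). ATP5MF, a membrane subunit, had 42.5 and 37.4 CPM against 15.2 to 22.2 CPM (log2FC -1.08, SE 0.29, edgeR adjusted p = 0.00525), with 37.2% of its transcript shared with the readthrough gene ATP5MF-PTCD1 and with PTCD1.

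Subunit c, which forms the rotating ring, is encoded by 3 genes whose mature protein is the same. Of these 3 genes, only ATP5MC3 was called between the lines after DMSO. ATP5MC3 had 245 and 242 CPM in SK-UT-1B after DMSO, 89.6 and 177 CPM after the combination, 43.4, 40.6, 64.6 and 49.2 CPM in SK-LMS-1 after DMSO, 43.4 and 30.4 CPM after MK-0752, and 49.1 and 33.7 CPM after the combination. It did not overlap between the lines, and its DMSO log2FC of -2.32 (SE 0.24, edgeR adjusted p = 1.96e-06) was the lowest of complex V. ATP5MC1 had 46.5 and 43.8 CPM in SK-UT-1B and 44.7, 55.2, 50.1 and 47.6 CPM in SK-LMS-1 after DMSO, with overlap (log2FC 0.13, SE 0.24, edgeR adjusted p = 0.737). ATP5MC2 had 110 and 88.0 CPM against 142, 139, 177 and 134 CPM, with SK-LMS-1 above SK-UT-1B after DMSO, but it was not called (log2FC 0.58, SE 0.24, edgeR adjusted p = 0.0665), though 6 of 13 alternatives called it higher. After the combination, the SK-UT-1B libraries 3-1 and 3-3 were at 55.9 and 119 CPM, against 132 and 138 CPM in SK-LMS-1. Per length of transcript, ATP5F1B was the most abundant gene of complex V in SK-UT-1B after DMSO, at 543 CPM per kb, and ATP5MC2 was in SK-LMS-1, at 234 CPM per kb.

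**Figure D2:**
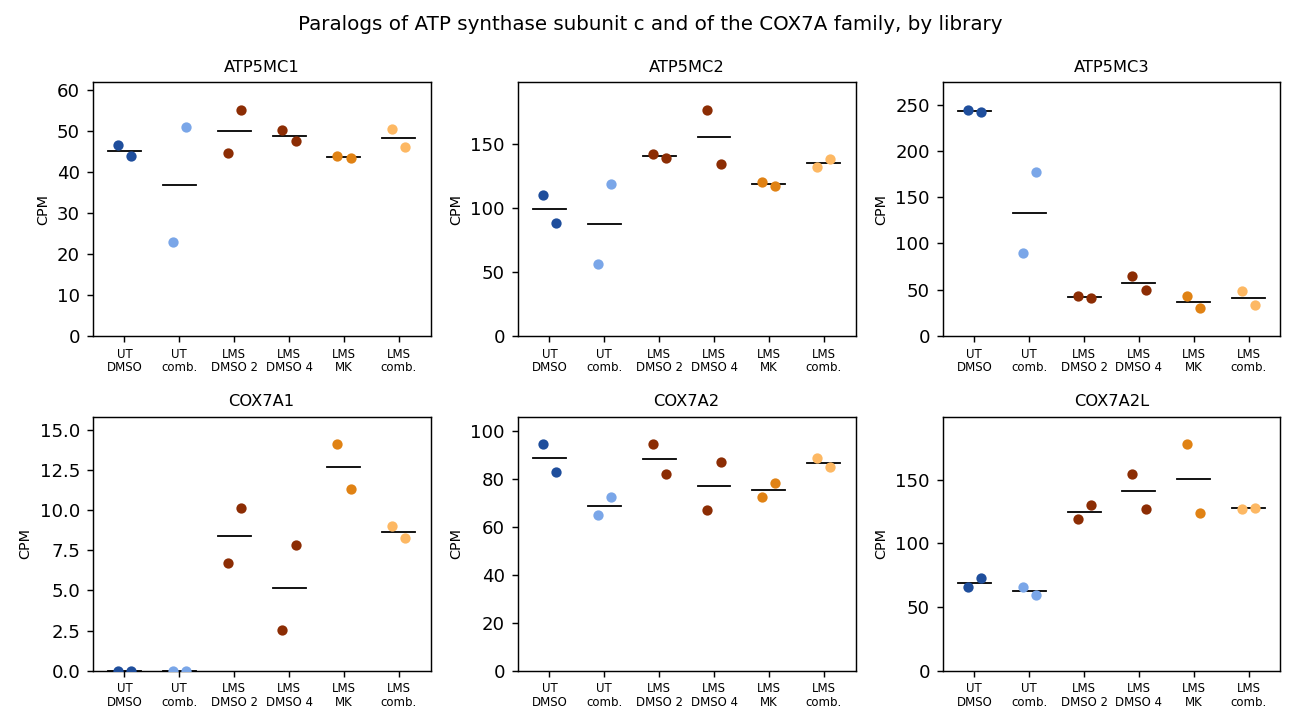
CPM (vertical axes, from 0) of ATP5MC1, ATP5MC2, ATP5MC3, COX7A1, COX7A2 and COX7A2L in each library; points are libraries and black lines are group means, with groups named as in the plot of summed CPM. ATP5MC3 is higher in both SK-UT-1B groups, COX7A1 is at 0 in all 4 SK-UT-1B libraries, and ATP5MC1 and COX7A2 overlap between the lines.

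Per length, the most abundant genes of the other complexes were the same in both lines after DMSO, with NDUFB10 at 180 CPM per kb in SK-UT-1B and 98.0 CPM per kb in SK-LMS-1, SDHB at 105 and 77.6, UQCRH at 233 and 103, and COX6B1 at 402 and 215. The least abundant were NDUFA9 in SK-UT-1B, at 0.698 CPM per kb, and NDUFV2 in SK-LMS-1, at 0.317 CPM per kb, for complex I, SDHA for complex II, UQCR11 for complex III, COX7A1 in SK-UT-1B and COX6B2 in SK-LMS-1 for complex IV, and ATP5MG and ATP5PO for complex V. The rank of NDUFA9 rests on its canonical transcript of 8356 bases. In CPM it lay at 4.01 to 6.23 in SK-UT-1B, above NDUFA7 at 0 to 0.981. Several of the other low values belong to genes that share sequence with neighbors on the same strand. Of the 83 genes, 13 shared at least 20% of their transcript with another gene on the same strand, and their counts are uncertain. They included NDUFV2 (90.0%), NDUFA13 (83.9%), NDUFA7 (77.9%), NDUFB8 (72.0%), NDUFA11 (68.2%) and ATP5PO (63.8%). Those not yet named as such were COX6B2 (29.9%), ATP5MG (24.4%) and SDHD (23.8%). The 64 genes that shared none on the same strand included 27 of the lower and 2 of the higher calls, with a median log2FC of -0.56. For the 13 genes the median was -1.44. Some of the 64 overlap a gene on the opposite strand, such as NDUFS7 (51.3%), ATP5ME (39.6%), NDUFB2 (24.3%) and NDUFB9 (23.9%). The strand setting of the counts is not given, so their counts may be affected too.

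**Figure D3:**
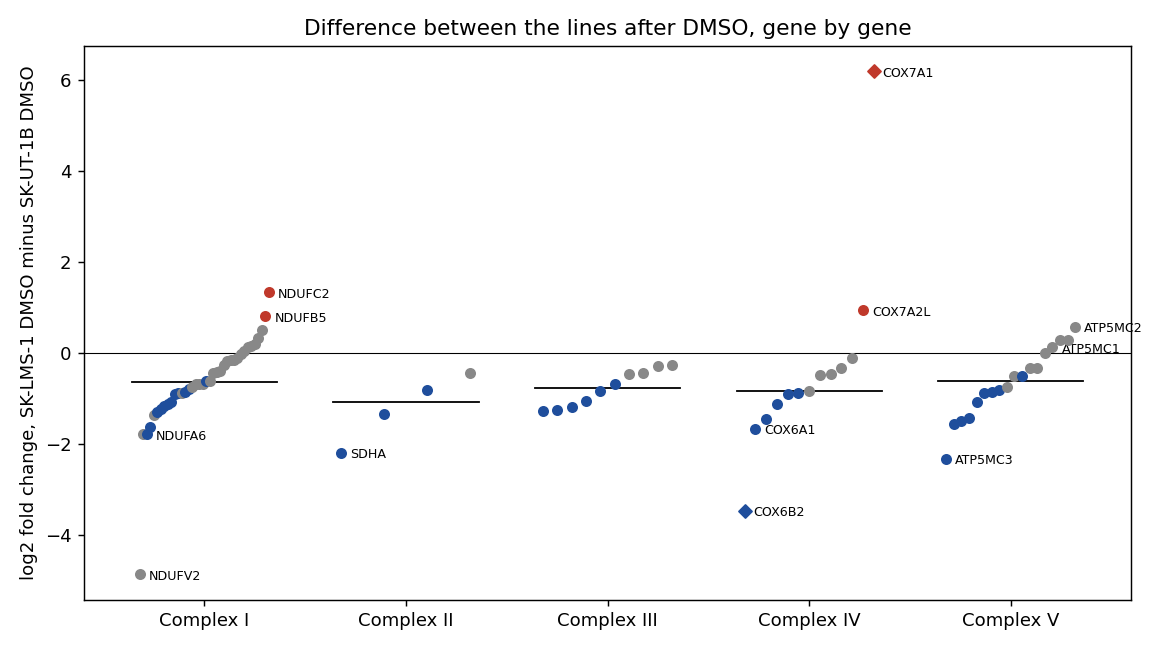
log2FC of SK-LMS-1 DMSO minus SK-UT-1B DMSO (vertical axis) for each of the 83 genes by complex; blue is lower and red is higher at an adjusted p under 0.05, grey is not called, black lines are medians of the fitted values, and diamonds are bounds from the floor of 3 counts. Most points lie below 0 in every complex, with medians from -1.07 in complex II to -0.62 in complex V, and COX7A1 lies highest.

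The lines were compared again after the combination, in other libraries. Here 16 genes were lower in SK-LMS-1, against 13.6% of all genes, and 6 were higher, against 19.3%, with a median log2FC of -0.23 (all genes 0.02). Among the 79 members with a mean of at least 50 counts, 18 were lower (22.8%), a share near the 22.6% of all genes with that filter, and 7.59% were higher, against 28.8%. With only the libraries of this comparison fitted, 12 of 82 members were lower (14.6%), below the 17.8% of all genes, and 6.1% were higher, against 22.3%. All 16 lower genes were also lower after DMSO, where they were 44.4% of the 36. They included NDUFS1, NDUFS3, NDUFV1 and NDUFA6 of complex I, SDHA, 4 genes of complex III (CYC1, UQCRC2, UQCRFS1 and UQCRH), COX5A and COX8A, and ATP5F1A, ATP5F1B, ATP5IF1 and ATP5MC3. Of these, ATP5IF1, COX5A, COX8A, CYC1, NDUFS3, SDHA and UQCRC2 lost their call under some of the 11 alternatives. Of the 6 higher genes, COX7A1, COX7A2L and NDUFB5 were also higher after DMSO, and NDUFB2, NDUFS4 and ATP5PD were not. ATP5PD, a stalk subunit, had 56.6 and 68.5 CPM in SK-UT-1B and 121 and 109 CPM in SK-LMS-1 (log2FC 0.88, edgeR adjusted p = 0.00104). NDUFS4, a complex I subunit needed for its assembly, had 15.5 and 7.28 CPM against 24.8 and 27.7 CPM (log2FC 1.20, edgeR adjusted p = 0.0177), and NDUFB2, a membrane arm subunit, had 13.5 and 12.9 CPM against 24.3 in both libraries (log2FC 0.88, edgeR adjusted p = 0.0328). Of 11 alternatives, 7 kept the call of NDUFS4, which was lost without SK-UT-1B library 3-3 or SK-LMS-1 library 4-2 (adjusted p up to 0.188), and 6 kept that of NDUFB2, which was lost without any 1 of the 4 libraries (up to 0.205).

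Both SK-UT-1B combination libraries moved these counts. Without library 3-1, 31 genes were lower, where 12% of all genes were, and the median log2FC was -0.58, and without library 3-3, 9 were lower and 10 higher, where 11.3% and 16.1% of all genes were, and the median was 0.04. With 1 of the pair left out, the remaining library is assumed to vary like those of the other groups. In the summed CPM, SK-UT-1B was 1.38 times SK-LMS-1 after the combination, from 4256 and 6111 CPM against 3911 and 3630 CPM.

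The next question was what the combination did in SK-UT-1B. No gene of the 83 was called, while 0.464% of all genes were higher and 0.251% lower. The log2FC was below 0 for 79 of the 83, with a median of -0.40 (all genes 0.00), and it was above 0 only for NDUFC2, ATP5MG and COX6A1, apart from COX7A1, which had no counts. At an unadjusted p under 0.05, 18 genes were lower and none higher, where 5.08% of all genes were lower. DESeq2 called 1 gene lower and edgeR with no filter beyond 1 count called 2, where each called 1.26% of all genes lower. The other settings that kept all libraries called none. Where the mean reached 100 counts, log2FC was lowest for NDUFA11 (16.9 and 7.27 CPM after DMSO, 5.08 and 4.47 CPM after the combination, log2FC -1.34, SE 0.71) and NDUFS6 (13.6 and 21.9 CPM, then 6.20 and 10.7 CPM, log2FC -1.08, SE 0.51), both subunits of complex I. It was highest for ATP5MG (10.9 and 9.87 CPM, then 13.0 and 16.3 CPM, log2FC 0.49, SE 0.41) and NDUFC2 (log2FC 0.41, SE 0.47). In these 4 genes, taken as the extremes of log2FC, the groups did not overlap. Their edgeR adjusted p was 0.56 for NDUFA11, 0.471 for NDUFS6, 0.768 for ATP5MG and 0.947 for NDUFC2. Of all 83 genes, 43 lay below DMSO without overlap and 2 above. The share of all tested genes without overlap was not counted.

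The values differed more from DMSO in library 3-1 than in 3-3. In library 3-1, 75 genes lay below both DMSO libraries and 2 above both, and in library 3-3 these numbers were 46 and 11. Of all tested genes, 28.4% lay below both and 34.9% above both in 3-1, and 26.4% and 29.8% in 3-3. The median of log2((CPM + 1) / (DMSO mean + 1)) was -0.66 in 3-1 and -0.21 in 3-3, and over all tested genes it was 0.00 in both. Without library 3-3, 20 genes were called lower, where 3.77% of all genes were, with a median log2FC of -0.69, and without library 3-1 none was called, where 0.883% of all genes were lower, with a median of -0.25 and 65 genes below 0, under the same assumption on the spread of the lone library. Library 3-1 also had 3.60% of its counts on mitochondrially encoded genes, against 5.47% in 3-3 and 5.81% and 4.67% after DMSO, and the part of library quality in the result was not tested. ATP5F1A lay below DMSO in both libraries, at 380 and 508 CPM against 621 and 626 CPM (log2FC -0.49, SE 0.16, edgeR adjusted p = 0.197). The libraries lay far apart for UQCRC1, with 64.2 and 159 CPM against 178 and 163 CPM, and for COX5A, with 44.9 and 109 CPM against 103 and 106 CPM.

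**Figure D4:**
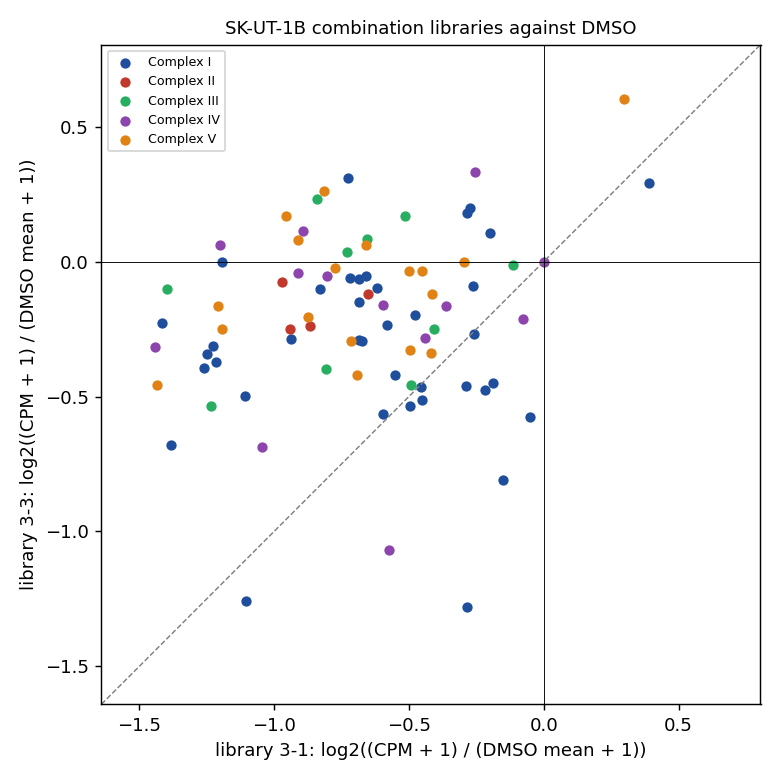
Each point is 1 of the 83 genes, colored by complex, with log2((CPM + 1) / (DMSO mean + 1)) in the SK-UT-1B combination library 3-1 on the horizontal axis and in library 3-3 on the vertical axis; the dashed line marks equal values. Most points lie left of 0 and above the dashed line, since the median was -0.66 in 3-1 and -0.21 in 3-3.

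NDUFA4L2, which is no member but the hypoxia-induced relative of NDUFA4, was called higher in SK-UT-1B after the combination. It had 7.13 and 6.45 CPM after DMSO and 59.7 and 22.4 CPM after the combination, with no overlap (log2FC 2.60, edgeR adjusted p = 0.0454), against 0.926 to 5.39 CPM in SK-LMS-1. The adjusted p ranged from 6.36e-05 to 0.709 over 11 alternatives, of which 7 kept the call, and it was 0.709 without library 3-1. NDUFA4 itself had 45.5 and 69.6 CPM after the combination in SK-UT-1B, against 70.1 and 74.6 CPM after DMSO (log2FC -0.33, SE 0.21, edgeR adjusted p = 0.666). The other tested genes of the hypoxia list (BNIP3, CA9, EGLN3, HIGD1A, LONP1 and PDK1) were not called in that comparison. CA9 had 0 counts in every SK-UT-1B library, so it could not be called. EGLN3 was near the floor, with at most 27 counts after DMSO and 2 after the combination.

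In SK-LMS-1, no gene of the 83 was called after the combination, where 0.0142% of all genes were higher and 0.00947% lower, or after MK-0752 alone, where 0.0853% were higher and 0.279% lower (edgeR). DESeq2 called none either. One gene had an unadjusted p under 0.05 in each comparison, NDUFS8 after the combination (log2FC -0.69, edgeR adjusted p = 0.907) and CYC1 after MK-0752 (log2FC -0.54, edgeR adjusted p = 0.777), where 4.33% and 6.41% of all genes did. The median log2FC was -0.07 after the combination and 0.10 after MK-0752, and summed CPM was 3911 and 3630 after the combination against 3981 and 3958 in DMSO set 4. With MK-0752 it was 3995 and 3569, against 3487 and 3926 for DMSO set 2. These values overlapped for MK-0752 and lay below DMSO set 4, within the range of all 4 DMSO libraries, for the combination.

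Among genes whose higher group averaged at least 100 counts, those with the highest and lowest log2FC were read in each library. After MK-0752, COX4I1 had 107 and 57.5 CPM against 35.9 and 63.2 CPM in DMSO set 2 (log2FC 0.73, edgeR adjusted p = 0.806), with an adjusted p of 0.0142 without DMSO library 2-3 and 0.0147 without MK-0752 library 2-3. SDHA had 7.18 and 9.16 CPM against 3.70 and 5.40 CPM (log2FC 0.85, edgeR adjusted p = 0.806). NDUFA9 had 2.33 and 1.01 CPM against 5.24 and 3.91 CPM (log2FC -1.46), and NDUFB3 had 14.0 and 10.4 CPM against 21.8 and 16.0 CPM (log2FC -0.64), both complex I subunits with an edgeR adjusted p of 0.806. Only COX4I1 overlapped between these groups. After the combination, COX6A1 had 6.58 and 4.72 CPM against 3.61 and 3.11 CPM in DMSO set 4 (log2FC 0.75), and COX7A1 had 8.98 and 8.29 CPM against 2.52 and 7.80 CPM (log2FC 0.74). NDUFS6 had 7.57 and 10.4 CPM against 26.2 and 8.84 CPM (log2FC -0.96), and NDUFB1 had 7.96 and 5.38 CPM against 12.5 and 12.1 CPM (log2FC -0.89). Among these 4 genes only NDUFS6 overlapped, where its value of 26.2 CPM in DMSO library 4-1 was the highest of the 12 libraries, and with DMSO set 2 as the control its log2FC was 0.47.

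The combination effects of the lines were also compared directly, as SK-UT-1B minus SK-LMS-1. No gene was called, while 0.147% of all genes were higher and 0.0853% lower (edgeR). At an unadjusted p under 0.05, 5 genes were lower (NDUFA4, NDUFB11, NDUFB9, SDHC and UQCRB) and none higher, where 4.45% of all genes were lower, and DESeq2 called none. The log2FC was below 0 for 69 genes, against 52.9% of all genes, with a median of -0.34 (all genes -0.05). This comparison shares the SK-UT-1B DMSO libraries with the comparison of the lines after DMSO.

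**Figure D5:**
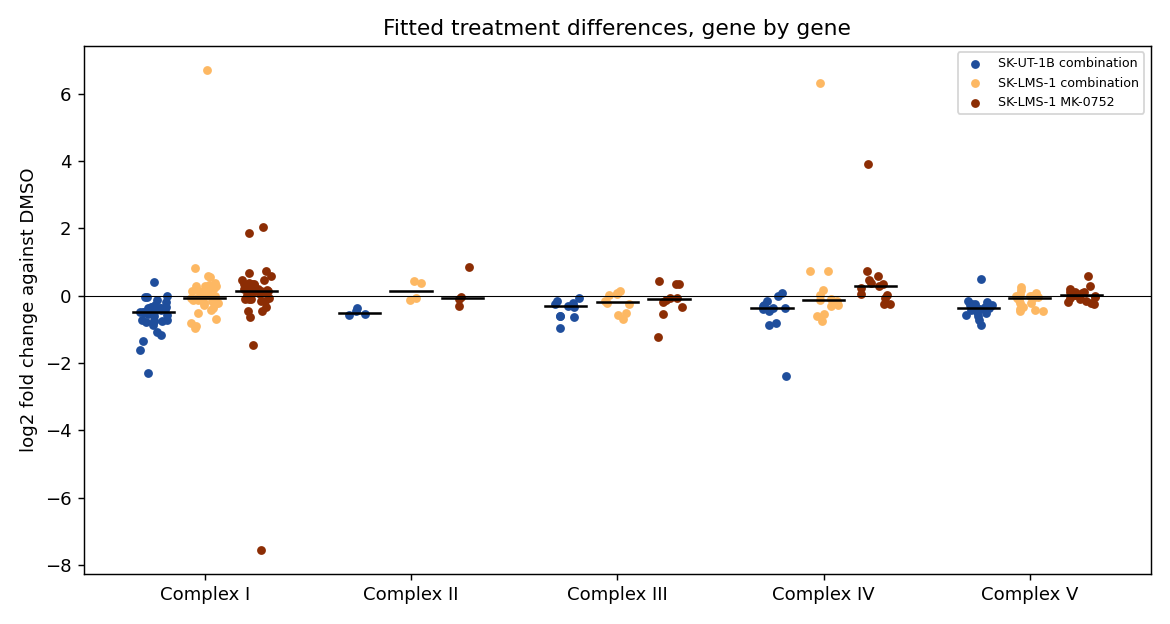
Fitted log2FC of each gene against its DMSO libraries (vertical axis) by complex, for the combination in SK-UT-1B (blue), the combination in SK-LMS-1 (light orange) and MK-0752 in SK-LMS-1 (brown); black lines are medians and no gene was called. Medians for SK-UT-1B lie between -0.50 and -0.31 over the 5 complexes, and those for SK-LMS-1 lie between -0.17 and 0.28; the points beyond 3 in either direction are COX6B2, NDUFA13 and NDUFV2, which had at most 83 counts in any library.

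Genes that work with the respiratory chain were read from lists, for which the shares given above for all genes also hold. Of the 13 mitochondrially encoded subunits, SK-LMS-1 had 12 lower and none higher after DMSO, with a median log2FC of -0.97. MT-ND1, a complex I core subunit, had 3645 and 3198 CPM in SK-UT-1B and 1072, 1103, 1239 and 1211 CPM in SK-LMS-1 after DMSO (log2FC -1.57, edgeR adjusted p = 2.91e-10), and MT-ND2, another, had 2251 and 1942 CPM against 936, 902, 796 and 1022 CPM (log2FC -1.20, edgeR adjusted p = 3.34e-08). MT-CO1, the catalytic subunit of complex IV, had 8644 and 7412 CPM against 5315 to 6521 CPM (log2FC -0.39, edgeR adjusted p = 0.0423).

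Among 22 genes of mitochondrial import and mass, 17 were lower and none higher, with a median log2FC of -0.73. HSPD1, the mitochondrial chaperonin, had 1094 and 1441 CPM against 282 to 329 CPM (log2FC -2.08, edgeR adjusted p = 4.07e-08), and CS, citrate synthase, had 371 and 337 CPM against 209 to 222 CPM (log2FC -0.71, edgeR adjusted p = 7.37e-05). Of 49 assembly factors, 13 were lower and 7 higher, with COX20, needed for complex IV assembly, at 43.3 and 69.0 CPM against 11.7 to 24.6 CPM (log2FC -1.77) and NUBPL, an iron-sulfur carrier for complex I, at 2.46 and 2.73 CPM against 14.3 to 18.6 CPM (log2FC 2.67). Of 18 electron carriers and coenzyme Q genes, 6 were lower and 3 higher, and CYCS, cytochrome c, was lower, with 290 and 311 CPM against 135 to 176 CPM (log2FC -0.95, edgeR adjusted p = 1.68e-05). GPD2, which feeds electrons from glycerol phosphate to ubiquinone, was higher, with 7.30 and 11.1 CPM against 60.2 to 81.2 CPM (log2FC 2.90, edgeR adjusted p = 1.73e-08), and so was SQOR, which feeds them from sulfide, with 0.485 and 0.796 CPM against 11.9 to 14.7 CPM (log2FC 4.29, edgeR adjusted p = 0.00311). Mitochondrial ribosomal proteins had 20 of 77 lower and 8 higher, with a median of -0.34, while cytosolic ribosomal proteins had 4 of 83 lower and 43 higher, with a median of 0.46.

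Of 20 regulators of respiratory genes, SK-LMS-1 had 12 lower and 1 higher after DMSO. PPARGC1A, a coactivator of mitochondrial biogenesis, had 123 and 119 CPM in SK-UT-1B after DMSO, 138 and 114 CPM after the combination, and 0 to 1.53 CPM in the 8 SK-LMS-1 libraries (edgeR adjusted p = 0.00379). PPARGC1B, its relative, had 22.6 and 23.7 CPM against 0.974 to 3.47 CPM after DMSO (log2FC -3.69, edgeR adjusted p = 2.89e-06). The gene that was higher was HIF1A, the oxygen-sensitive factor, with 173 and 208 CPM against 569 to 780 CPM (log2FC 1.81, edgeR adjusted p = 2.66e-09). None of these 3 overlapped between the lines. Of the DNA-binding factors, GABPA was lower, at 76.9 and 84.4 CPM against 39.2 to 63.2 CPM (log2FC -0.63, edgeR adjusted p = 0.00739). Not called were NRF1, at 18.0 and 15.1 CPM against 6.82 to 15.7 CPM (log2FC -0.61, edgeR adjusted p = 0.189), and YY1, at 130 and 133 CPM against 135 to 156 CPM (log2FC 0.12, edgeR adjusted p = 0.583).

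Promoters were read for the motifs of these 3 factors, in windows of 250 bases before to 50 after the start of each gene, from RefSeq on GRCh38.p14. Windows for 67 of the 83 genes were matched, and the first window listed was used for each. The NRF1 core GCGCATGC was found on either strand in 19.4% of the members' windows and in 3.27% of the windows of all 27305 genes. The ETS motif CCGGAAG, which GABPA and other ETS factors bind, was found in 29.9% and 10.7%, and the YY1 motif AAGATGGCG in 11.9% and 1.85%. GCGCATGC reads as GCATGCGC on the other strand, so its matches can overlap. The 28 lower genes with a window held the NRF1 core in 6 windows (21.4%) and the ETS motif in 7, and the 38 genes not called after DMSO in 7 (18.4%) and 13 (34.2%). A match is a description of the sequence and not a shown binding site.

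The promoters of 4 genes show how the motifs lie, each as the 250 bases before the start on the gene's strand, with matches in capitals. NDUFA6 (chr22:42090773-42091022, minus strand) and COX6A1 (chr12:120437863-120438112, plus strand) were lower in SK-LMS-1 and hold the NRF1 core, once and in a pair, and COX6A1 holds the ETS motif near its start. SDHA (chr5:218070-218319, plus strand) was lower and holds none of the 3 motifs in this stretch. ATP5MC2 (chr12:53676084-53676333, minus strand) was not lower and holds the NRF1 core.
NDUFA6: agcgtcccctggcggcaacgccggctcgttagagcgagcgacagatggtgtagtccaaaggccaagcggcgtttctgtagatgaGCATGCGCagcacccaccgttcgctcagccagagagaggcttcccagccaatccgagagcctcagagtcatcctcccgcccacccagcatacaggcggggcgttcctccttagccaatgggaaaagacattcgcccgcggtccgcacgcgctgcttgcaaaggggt
COX6A1: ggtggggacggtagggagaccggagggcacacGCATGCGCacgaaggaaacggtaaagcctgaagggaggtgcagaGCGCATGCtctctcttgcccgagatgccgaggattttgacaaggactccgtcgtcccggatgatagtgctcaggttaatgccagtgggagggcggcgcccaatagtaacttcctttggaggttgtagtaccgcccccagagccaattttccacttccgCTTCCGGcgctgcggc
SDHA: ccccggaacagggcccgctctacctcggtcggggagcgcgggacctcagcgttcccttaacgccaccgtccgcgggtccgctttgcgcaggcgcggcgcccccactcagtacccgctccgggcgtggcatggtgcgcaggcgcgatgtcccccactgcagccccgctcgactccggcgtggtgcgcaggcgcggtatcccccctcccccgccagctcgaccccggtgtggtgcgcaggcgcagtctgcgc
ATP5MC2: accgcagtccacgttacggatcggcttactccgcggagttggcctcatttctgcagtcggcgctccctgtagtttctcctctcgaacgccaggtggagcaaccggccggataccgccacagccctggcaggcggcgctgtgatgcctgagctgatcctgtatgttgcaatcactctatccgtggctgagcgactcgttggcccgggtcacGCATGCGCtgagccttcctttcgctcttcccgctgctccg
The core was present both in genes that were called lower and in ATP5MC2, which was not called.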

How the data were processed

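The authors deposited 1 table of read counts per gene for 12 libraries. Per the labels and methods, RNA was depleted of rRNA, sequenced single-end with a stranded kit, trimmed with Trim Galore 0.3.7, filtered with SortMeRNA and aligned with STAR 2.7.9a to hg38. The annotation, strand setting and duplicate removal are not given in the sources used here. The submitters' processing notes also name DESeq2 1.42.0.

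Counts were tested with edgeR 4.0.16 in R 4.3.3 (TMM, filterByExpr, robust quasi-likelihood) over 6 groups of 2 libraries, with Benjamini-Hochberg adjustment over 21114 genes. The fit was tested on simulated data. Comparisons between lines are SK-LMS-1 minus SK-UT-1B. Alternatives were DESeq2 1.42.0, DESeq2 size factors, other filters, other controls, pseudogene counts added, a replicate block and each library left out. Named by rule were genes of fixed core roles, isoform pairs, the most and least abundant genes per kb, the 5 highest and 5 lowest log2FC among genes past both thresholds between lines, and for a treatment without such genes the 2 at each end whose higher group averaged 100 counts or more. Other names were chosen after their values were seen. Members and lists were chosen with earlier results of these data known. Gene overlaps were read from GENCODE, and CPM per kb used the canonical transcript's length. One item is counted among the members but not reported by name here.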

Additional observations from a re-analysis of the deposited data

Results flagged for a closer look

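In the 4 SK-LMS-1 DMSO libraries, 51 values were checked for a library far from the others by Dixon's ratio, and 5 lay beyond its 95% critical value. Chance gives about 1 in 20. The summed CPM of all members was 3487 in library 2-1 (ratio 0.889). CYC1 was at 43.9 CPM (0.86), COX6B1 at 78.3 CPM (0.848) and NDUFB5 at 38.7 CPM (0.965) in library 4-1, each the lowest of the 4. NDUFC2 was at 15.4 CPM in library 2-1, the highest of the 4 (0.876).

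The summed CPM of complex II differed in direction between the lines after the combination, with DMSO set 4 as the SK-LMS-1 control. In SK-UT-1B it was 315 and 280 CPM after DMSO and 161 and 266 CPM after the combination, a ratio of 0.718. In SK-LMS-1 it was 143 and 163 CPM in DMSO set 4 and 164 and 176 CPM after the combination, a ratio of 1.11. With DMSO set 2, at 155 and 192 CPM, the combination mean of 170.0 CPM lay below the control mean of 174 CPM, and both combination libraries lay within the range of the 4 DMSO libraries. The difference between these ratios was not tested.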

How the results depend on the processing

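After DMSO, 27 of the 36 lower and 2 of the 4 higher genes were called under all 13 alternatives. With 1 library left out, the median log2FC of the members ranged from -0.91 to -0.58. Between the lines after the combination, leaving out 1 library gave 9 to 31 lower and 4 to 10 higher genes, with 31 lower without SK-UT-1B library 3-1 and 9 without 3-3, where 12% and 11.3% of all genes were lower. For the combination in SK-UT-1B, DESeq2 called 1 gene lower, no filter beyond 1 count gave 2, and leaving out 1 library gave 0 to 20, with 20 without 3-3, where 3.77% of all genes were lower. Leaving out 1 library gave 0 to 7 lower genes for the combination effect of SK-UT-1B minus SK-LMS-1 (7 without 3-3, where 2.37% of all genes were lower), 0 to 1 higher for MK-0752 and for MK-0752 minus the combination, and 0 to 2 higher between the DMSO sets. NDUFS6 after the combination in SK-LMS-1 changed sign, to 0.47 with DMSO set 2 as the control, and ranged from -1.52 to 0.03 with 1 library left out. With DESeq2 and with no filter beyond 1 count, 1.26% of all genes were lower for the combination in SK-UT-1B. The causes of the changes were not tested.

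Libraries with the same replicate number did not deviate together (correlations -0.105 to 0.0703), so the numbers do not pair them. With the replicate block, 38 genes were lower after DMSO and 11 after the combination, where 17.6% and 11.3% of all genes were lower, and none was called for the combination in SK-UT-1B, where the median log2FC was -0.50. Depth limited few members, since 1 to 4 of the 83 had under 10 counts in a library.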
